A study of Mus musculus with 6 samples.

Results

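Actin cytoskeleton and myosin genes were examined in monocytes that had been sorted from B6 mouse bone marrow, where these circulating phagocytes form. The genes were chosen by symbol alone: actins, the Arp2/3 complex, Wiskott-Aldrich syndrome protein (WASP) family members, coronins, cofilins, profilins, capping proteins, filamins, alpha-actinins, tropomyosins, class I myosins and chains of non-muscle myosin II. The symbols matched 52 of the 24421 gene entries in the count table. Cells of 3 libraries were given 5 ng (volume not stated) of GM-CSF, the cytokine granulocyte-macrophage colony-stimulating factor that signals to myeloid cells, for 3 h. Control cells, also 3 libraries, received none. The controls are called freshly isolated by 1 label and others describe medium with or without the cytokine, so time in culture and GM-CSF cannot be told apart if the controls were not cultured. Strain and cell type were the same in all 6 libraries. The labels do not state whether each replicate was a mouse or culture of its own. The p-values therefore reflect only how these samples differ from each other, which may be technical.

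Actin filaments grow from monomers, and their assembly pushes the plasma membrane forward and shapes phagocytic cups and podosomes. The Arp2/3 complex starts new filaments as branches once a WASP family protein activates it, profilin delivers monomers, capping proteins stop growth, and cofilin and coronins help to take filaments apart. Tropomyosins coat filaments, filamins and alpha-actinins link them, myosin II pulls on them, and class I myosins tie them to membranes. Monocytes and macrophages are known for relying on this machinery to migrate and to engulf particles.

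GM-CSF libraries held 16643228 to 21468929 reads assigned to genes and control libraries 20782467 to 25232956. Read counts were scaled to CPM, counts per 1e6 gene reads. Over all tested genes, not independent of each other, Pearson correlations of log2 CPM were 0.980 to 0.990 among GM-CSF libraries and 0.992 for each control pair, and the lowest 2 values were those of GM-CSF replicate 3. The monocyte marker Csf1r had 1596 to 1666 CPM in GM-CSF libraries and 1362 to 1602 CPM in control libraries, and Ly6c2 had 3184 to 3238 CPM in GM-CSF libraries and 4027 to 4176 CPM in control libraries. Summed CPM of 10 neutrophil and precursor genes ran from 10825 to 13650 in GM-CSF libraries and from 16014 to 21125 in control libraries, with 1 gene higher and 4 lower. Those of 7 monocyte genes ran from 27067 to 29159 CPM in GM-CSF libraries and from 59857 to 68840.0 CPM in control libraries, with 5 genes lower. Most of that sum was Lyz2, at 21395 ± 1053 CPM in GM-CSF libraries and 56025 ± 4548 CPM in control libraries. The chemokine receptor genes Cx3cr1 (-3.49) and Ccr2 (-1.84), with Lyz2 (-1.38), fell the most on the log2 scale. The part of these shifts in the results was not tested. For 9 platelet and megakaryocyte genes the sums were 2.70 to 3.35 CPM in GM-CSF libraries and 1.92 to 28.9 CPM in control libraries, the highest in control replicate 3. For 11 smooth muscle and stromal genes, of which Des, Col1a2 and Col3a1 had no read, they were 12.1 to 16.5 CPM in GM-CSF libraries and 15.8 to 17.4 CPM in control libraries. B cell genes (7) summed to 34.2 to 42.2 CPM in GM-CSF libraries and 62.8 to 71.4 CPM in control libraries, T and NK cell genes (7) to at most 2.5 CPM and erythroid genes (8, with all 4 haemoglobin genes at 0) to at most 4.52 CPM in any library. In bulk samples, fewer cells of a type and less RNA per cell cannot be told apart.

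Members of most families moved in both directions in GM-CSF libraries rather than together. Of 52 genes, 44 had enough reads to be tested, and 32 of these (72.7%) changed, 12 higher and 20 lower, at an adjusted p under 0.05 in edgeR's quasi-likelihood test. Among all 11731 genes tested, 64.0% changed (32.8% higher and 31.2% lower), so the total number of changed members is close to the background. By direction, 45.5% of the tested members were lower, above the 31.2% of all genes. No test over the members was run. Of the changed members 22 moved by less than 1 log2 unit. Of the 44 tested, 5 rose and 5 fell by at least 2-fold. Among all 11731 genes tested, 2876 (24.5%) changed by at least 2-fold, so this count is close to the background too. The median log2 fold change was -0.17 over the members tested and 0.01 over all genes tested. CPM ranges of the groups did not overlap for 35 of the 44 members (79.5%), against 69.5% of all genes tested. The 8 untested members had at most 5 reads in any library. Capza3 and Wasf3 had no read in any library, which allows 0.119 to 0.180 CPM (3 reads of a library's total, counting error only). Actr3b, Coro2b, Myl9, Myo1a, Tpm2 and Wasf1 made up the rest. Of the members described most fully, 5 protein-coding genes lie on GRCm38 at chr11:120345690-120348542 (Actg1), chr4:46536937-46602202 (Coro2a), chr11:75650504-75673910 (Myo1c), chr9:70207350-70399766 (Myo1e) and chr17:33555707-33607764 (Myo1f).

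**Figure D1:**
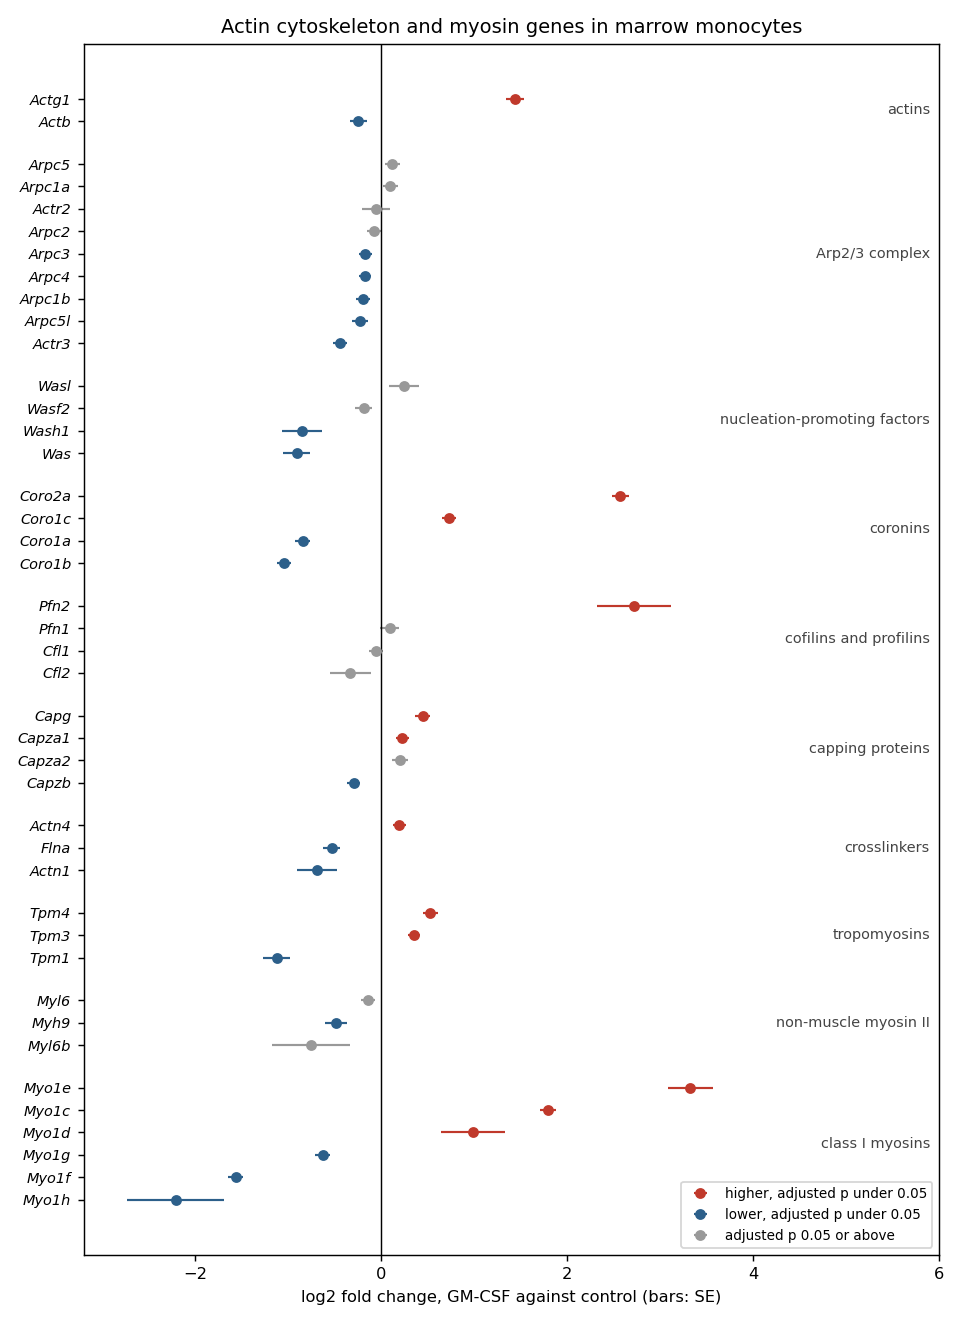
Log2 fold change of 42 tested genes (x axis, GM-CSF against control, bars are SE), grouped by role down the page. Red and blue points passed an adjusted p of 0.05; coronins and class I myosins reach both sides of 0, while the Arp2/3 subunits stay between -0.45 and 0.12.

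The 52 genes together took 4.80%, 4.82% and 5.01% of gene reads in GM-CSF libraries, against 5.40%, 5.63% and 5.46% in control libraries, with no overlap. Most of this difference lay in Actb, which took 2.30% ± 0.0819 in GM-CSF libraries and 2.74% ± 0.0683 in control libraries (SD, n = 3 each), and the other members took 2.58% in GM-CSF libraries and 2.75% in control libraries. Scaled by length to TPM, the sums overlapped, at 48563, 48713 and 50285 TPM in GM-CSF libraries and 47477, 50776 and 47696 TPM in control libraries. The coronins accounted for 0.393% ± 0.0237 of gene reads in GM-CSF libraries and 0.587% ± 0.0177 in control libraries (SD, n = 3 each). Class I myosins took 0.136% ± 0.00593 in GM-CSF libraries and 0.229% ± 0.0101 in control libraries, and tropomyosins 0.139% ± 0.00218 in GM-CSF libraries and 0.105% ± 0.00235 in control libraries. Cofilins and profilins together took 0.249% ± 0.0179 in GM-CSF libraries and 0.247% ± 0.0179 in control libraries, and their ranges overlapped. These shares are descriptions, with no test over the groups of genes.

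**Figure D2:**
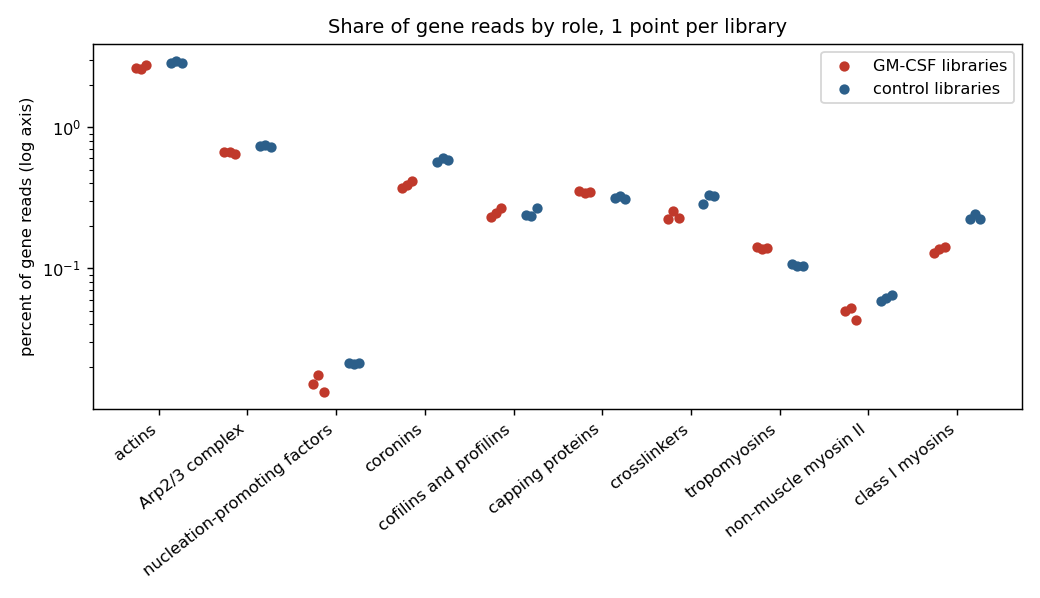
Percent of gene reads (log axis) taken by each role in each library, GM-CSF in red left of control in blue. Capping proteins and tropomyosins lie higher in all GM-CSF libraries, and cofilins with profilins overlap. Every other role, including coronins, class I myosins, crosslinkers, nucleation-promoting factors, actins and non-muscle myosin II, lies lower in all GM-CSF libraries.

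The 2 actins that the symbols matched moved in opposite directions. A further actin gene, Acta2, was counted among the smooth muscle and stromal genes. It stood at 8.76 CPM in GM-CSF libraries and 12.8 CPM in control libraries (log2 fold change -0.54 ± 0.15 (SE), edgeR adjusted p = 0.00960). Actb, which encodes beta-actin, had 22445, 22614 and 23940.5 CPM in GM-CSF libraries, against 27049.5, 28226 and 27037 CPM in control libraries. Actg1, which encodes gamma-actin, had 3781, 3307 and 3777 CPM in GM-CSF libraries, against 1424, 1364 and 1230.1 CPM in control libraries. All GM-CSF libraries were below all control libraries for Actb and above them for Actg1. The log2 fold change was 1.44 ± 0.10 (SE) for Actg1 (edgeR adjusted p = 2.91e-07) and -0.25 ± 0.09 for Actb (edgeR adjusted p = 0.0305). The Actb call ended without GM-CSF replicate 2 (-0.22) and without control replicate 1 (-0.25) or 2 (-0.23). Actg1 has near-identical stretches in 4 other annotated genes, so its level is uncertain. Levels of different genes were compared per length, as TPM, which scales reads by the annotated exon bases of a gene and then to the same total in each library. On that scale Actg1 made up 13.7% ± 0.835 of the actin pair in GM-CSF libraries and 4.69% ± 0.329 in control libraries (SD, n = 3 each). At 4134 ± 289 TPM in GM-CSF libraries Actg1 stood above Coro1a and Arpc2, and at 1355 ± 109 TPM in control libraries it stood below both.

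Promoter sequence of Actg1 is shown because it holds a CArG box, the motif bound by serum response factor (SRF), a transcription factor known for driving actin genes. RefSeq promoter windows on GRCm38.p6, 250 bases before to 50 after a gene's start, matched 44 of the 52 members with 52 windows; Actb, Actr3b, Arpc5l, Capza3, Coro1b and Myo1d were among the 8 with none. The box was searched by name, in its strict form, and since it is its own reverse complement a hit counts for both strands. It was found in 5 of the 52 member windows (9.62%) and in 1.63% of all 32851 windows. The other members with a box were Myo1e, Arpc4, Myl6 and Myl9. For the members that rose, Actg1 and Myo1e, the bases upstream of the first annotated transcript base are given, and for the others the box with its flanks, 5′ to 3′ on the gene's strand with the box in capitals. They come from chr11:120348543-120348745 (minus strand), chr9:70207100-70207349 (plus), chr6:113377863-113377882 (plus), chr10:128493040-128493069 (minus) and chr2:156775293-156775322 (plus).
Actg1: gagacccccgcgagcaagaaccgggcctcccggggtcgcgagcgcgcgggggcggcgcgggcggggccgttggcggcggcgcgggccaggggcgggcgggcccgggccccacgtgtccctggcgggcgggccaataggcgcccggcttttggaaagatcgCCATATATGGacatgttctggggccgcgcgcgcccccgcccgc
Myo1e: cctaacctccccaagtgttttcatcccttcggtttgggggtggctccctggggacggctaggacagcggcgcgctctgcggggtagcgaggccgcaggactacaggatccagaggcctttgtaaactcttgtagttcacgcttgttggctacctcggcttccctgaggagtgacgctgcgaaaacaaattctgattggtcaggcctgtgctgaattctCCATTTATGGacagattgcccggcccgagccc
Arpc4: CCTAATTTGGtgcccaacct
Myl6: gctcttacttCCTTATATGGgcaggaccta
Myl9: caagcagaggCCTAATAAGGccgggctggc
Box positions count from the base before the RefSeq start as -1. The box spans -90 to -81 in Actg1 and -32 to -23 in Myo1e. It spans -250 to -241 in Arpc4, -50 to -41 in Myl6 and -161 to -152 in Myl9. Myl6 had 2 windows, and only the one at chr10:128492960-128493259 held the box. The Myl6 window at chr10:128493837-128494136, nearer the annotated 5′ end of the gene (128494145), held none. The printed Actg1 bases stop before the first transcript base annotated in GENCODE M21. That base lies upstream of the RefSeq start, so the last Actg1 base printed is not -1. These genes did not share a direction: Actg1 and Myo1e rose, Arpc4 fell slightly, Myl6 did not pass the test (-0.15) and Myl9 had too few reads. A second motif, TTCNNNGAA, the core bound by STAT factors that act downstream of the GM-CSF receptor, also reads the same on both strands. It was in none of the 52 member windows and in 8.30% of all windows. A match is a description of these letters and not a shown binding site.

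The Arp2/3 complex, which nucleates branched filaments, spanned a narrow range of changes. Of its 9 tested subunit genes 5 fell, 4 gave no call and none rose, with log2 fold changes from -0.45 to 0.12. Actr3, which encodes the actin-related subunit Arp3, had 1149.6, 1119 and 1033 CPM in GM-CSF libraries, against 1494, 1578 and 1446 CPM in control libraries. It fell by 0.45 ± 0.08 on the log2 scale (edgeR adjusted p = 4.38e-04), and the groups did not overlap. Its partner Actr2, which encodes Arp2, had 394, 435 and 258 CPM in GM-CSF libraries, against 366, 386 and 384 CPM in control libraries. GM-CSF replicate 3 was the lowest of the 6 libraries, whereas the other GM-CSF libraries were above every control library. Actr2 was not called (-0.06 ± 0.15, edgeR adjusted p = 0.746), and its sign turned without GM-CSF replicate 3 (0.14). Arpc2, a scaffold subunit, had 1325, 1347 and 1162 CPM in GM-CSF libraries, against 1357, 1325 and 1388 CPM in control libraries, and did not pass the test (-0.08 ± 0.08, edgeR adjusted p = 0.394). It was called with upper quartile scaling (-0.20), a setting that lowers the median of all genes by 0.12 log2 units.

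The smaller falls in the Arp2/3 complex were in Arpc5l (-0.23), Arpc1b (-0.20), Arpc4 (-0.17) and Arpc3 (-0.17), and each of these calls ended when single libraries were left out. For Arpc1b this held for GM-CSF replicates 1 and 2 and all 3 control replicates (-0.22 to -0.15). The Arpc3 call ended without GM-CSF replicates 2 or 3 or any control replicate (-0.20 to -0.14), and the Arpc4 call without GM-CSF replicates 1 or 2 or any control replicate (-0.19 to -0.14). For Arpc5l it ended without GM-CSF replicates 1 or 2 or control replicate 1 (-0.23 to -0.15). Without a filter on low counts the calls of Arpc3 (-0.18) and Arpc4 (-0.19) ended too. Under upper quartile scaling Arpc1b stood at -0.31, Arpc3 and Arpc4 at -0.29 and Arpc5l at -0.35. Both exchangeable subunits kept a dominant form. Arpc1a made up 10.4% ± 0.140 of the Arpc1 pair in GM-CSF libraries and 8.66% ± 0.255 in control libraries, and Arpc5l made up 3.19% ± 0.0543 of the Arpc5 pair in GM-CSF libraries and 4.03% ± 0.305 in control libraries (per length, SD, n = 3 each).

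Activators of Arp2/3 with a call were lower. Was encodes WASP, the activator particular to blood cells and needed for macrophage podosomes. It had 52.7, 57.8 and 36.1 CPM in GM-CSF libraries, against 96.9, 87.5 and 91.2 CPM in control libraries, and every GM-CSF library was below every control library. The log2 fold change of Was was -0.91 ± 0.14 (edgeR adjusted p = 2.32e-04), and -0.72 without GM-CSF replicate 3, its lowest library. Wash1, listed as Washc1 in current annotation and encoding the activator found on endosomes, fell by 0.85 ± 0.21 (edgeR adjusted p = 0.00460), with 9.59, 11 and 5.54 CPM in GM-CSF libraries and 15.1, 15.1 and 17.0 CPM in control libraries. The WAVE2 gene Wasf2 (-0.19) and the widely expressed Wasl, which encodes N-WASP (0.24), did not pass the test. Wasf2 was called without GM-CSF replicate 2 (-0.29) and with upper quartile scaling (-0.31). Wasl made up 10.3% ± 3.49 of the Was and Wasl pair in GM-CSF libraries and 4.68% ± 0.379 in control libraries, and GM-CSF replicate 3 was the highest.

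Coronins, which regulate Arp2/3 branches and filament turnover, all changed among the 4 tested, 2 in each direction. Coro2a, whose product is also found in nuclear corepressor complexes, had 409, 473 and 420 CPM in GM-CSF libraries, against 76.5, 66.0 and 77.6 CPM in control libraries. The mean was 5.91-fold higher (log2 fold change 2.57 ± 0.09, edgeR adjusted p = 2.37e-09), the largest rise among members above 100 CPM in GM-CSF libraries. Coro1b, a coronin of the leading edge, had 411, 427 and 458 CPM in GM-CSF libraries, against 893, 930 and 870 CPM in control libraries, and fell by 1.05 ± 0.07 on the log2 scale (edgeR adjusted p = 4.15e-07). No library of either group crossed into the range of the other for these genes. Ptprcap, which overlaps 13.5% of the exon bases of Coro1b on the same strand, was at 5.70 CPM in GM-CSF libraries and 9.26 CPM in control libraries.

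The coronins that dominate leukocytes and other tissues also parted. Coro1a, the coronin of blood cells, stood at 2534 ± 195 CPM in GM-CSF libraries and 4576 ± 152 CPM in control libraries (SD, n = 3 each) and fell by 0.85 ± 0.08 (edgeR adjusted p = 5.96e-06). Coro1c, which is widely expressed, stood at 528 ± 24.4 CPM in GM-CSF libraries and 320 ± 15.1 CPM in control libraries and rose (0.73 ± 0.07, edgeR adjusted p = 5.90e-06). Within the pair, Coro1c made up 5.67% ± 0.265 per length in GM-CSF libraries and 1.97% ± 0.0313 in control libraries. Coro1a remained the most abundant coronin in both groups, at 2763 ± 192 TPM in GM-CSF libraries and 4423 ± 218 TPM in control libraries.

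**Figure D3:**
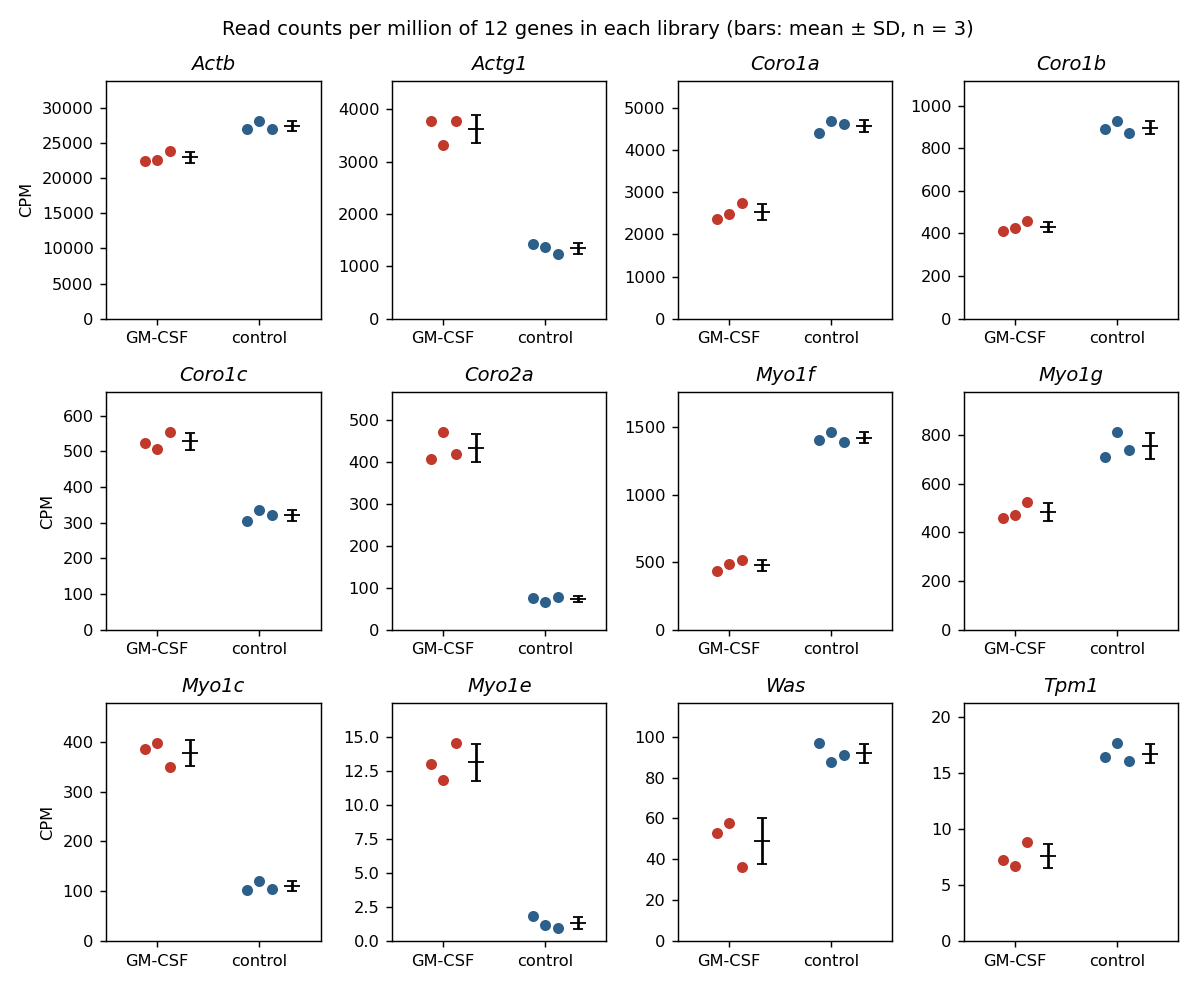
CPM of 12 genes in each library (points, axes from 0), with mean and SD beside them, GM-CSF left of control. In each panel the groups are separate: Actg1, Coro1c, Coro2a, Myo1c and Myo1e are higher in GM-CSF libraries, and the other 7 are lower.

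Cofilin and profilin genes that carry most of the expression did not pass the test. Cfl1, the cofilin of non-muscle cells, which severs filaments, had 1241, 1265 and 1275 CPM in GM-CSF libraries, against 1247, 1269 and 1435 CPM in control libraries (-0.06 ± 0.07, edgeR adjusted p = 0.533). Pfn1, the ubiquitous profilin, had 1066, 1168 and 1392 CPM in GM-CSF libraries, against 1131, 1062 and 1229 CPM in control libraries (0.09 ± 0.10, edgeR adjusted p = 0.450). Upper quartile scaling (-0.03) and leaving out GM-CSF replicate 3 (-0.02), the library with its highest value, turned the sign. Cfl2 did not pass either (-0.33 ± 0.22). Pfn2, a profilin best known from the nervous system, rose by 2.72 ± 0.39 on the log2 scale (edgeR adjusted p = 1.14e-04), yet only to 3.04, 2.04 and 3.87 CPM in GM-CSF libraries, against 0.375, 0.634 and 0.337 CPM in control libraries. Per length it made up 0.167% of the profilin pair in GM-CSF libraries and 0.0272% in control libraries.

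Capping proteins split. Capg, a gelsolin relative that caps filament ends and is abundant in macrophages, stood at 1225 ± 68.4 CPM in GM-CSF libraries and 906 ± 25.1 CPM in control libraries and rose (0.44 ± 0.08, edgeR adjusted p = 3.79e-04). Of the heterodimer CapZ, the beta subunit gene Capzb fell (-0.30 ± 0.07, edgeR adjusted p = 0.00274) and the alpha subunit gene Capza1 rose (0.23 ± 0.07, edgeR adjusted p = 0.0202). Capza2, the other alpha gene, was at 0.20 and did not pass the test (edgeR adjusted p = 0.0614). The Capza1 call ended without GM-CSF replicates 1 (0.20) or 2 (0.22), without control replicate 3 (0.17) and with upper quartile scaling (0.11). Capza2 was called without GM-CSF replicate 3 (0.27), with limma-voom (0.20) and with a replicate block (0.20). Capza2 made up 68.9% ± 0.719 of the alpha pair in GM-CSF libraries and 69.3% ± 0.481 in control libraries, which overlapped.

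Among crosslinkers 3 of 4 fell. Flna, which encodes filamin A, an orthogonal crosslinker that also binds integrins, had 1765, 2053 and 1757 CPM in GM-CSF libraries, against 2436, 2902 and 2777 CPM in control libraries. It fell by 0.53 ± 0.09 on the log2 scale (edgeR adjusted p = 3.58e-04), without overlap. Actn1 fell (-0.69 ± 0.22, edgeR adjusted p = 0.0161) and its paralog Actn4 rose (0.19 ± 0.07, edgeR adjusted p = 0.0339). Actn4 made up 97.9% ± 0.732 of the alpha-actinin pair per length in GM-CSF libraries and 96.2% ± 0.261 in control libraries. The Actn1 call ended without control replicate 3 (-0.59), and its value was -0.46 without GM-CSF replicate 3. The Actn4 call ended without GM-CSF replicates 2 (0.22) or 3 (0.16) or control replicates 1 or 2 (0.17 each), without a filter on low counts (0.18), without the most abundant genes in the scaling (0.17) and with upper quartile scaling (0.08).

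Tropomyosins were changed in all 3 tested genes. Tpm4 stood at 589 ± 33.0 CPM in GM-CSF libraries and 411 ± 24.9 CPM in control libraries (0.53 ± 0.08, edgeR adjusted p = 1.66e-04), and Tpm3 at 794 ± 17.6 CPM in GM-CSF libraries and 625 ± 11.6 CPM in control libraries (0.35 ± 0.07, edgeR adjusted p = 7.41e-04). Both are cytoskeletal tropomyosins of non-muscle cells. Tpm1, best known for its muscle and stress fibre products, had 7.21, 6.73 and 8.80 CPM in GM-CSF libraries, against 16.4, 17.7 and 16.0 CPM in control libraries. Every GM-CSF library was below every control library, and Tpm1 fell by 1.13 ± 0.15 on the log2 scale (edgeR adjusted p = 4.98e-05). Per length, Tpm1 made up 0.886% ± 0.106 of the pair it forms with Tpm3 in GM-CSF libraries and 2.45% ± 0.169 in control libraries.

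Among the non-muscle myosin II chains that the symbols matched, Myh9 and Myl6 held nearly all reads. Myh9, the heavy chain, had 275, 299 and 205 CPM in GM-CSF libraries, against 347, 377 and 376 CPM in control libraries. It fell by 0.49 ± 0.12 on the log2 scale (edgeR adjusted p = 0.00354), and by 0.34 without GM-CSF replicate 3, its lowest library. The essential light chain genes Myl6 (-0.15 ± 0.07) and Myl6b (-0.76 ± 0.42, under 1.2 CPM in every library) did not pass the test, although Myl6 was called with upper quartile scaling (-0.26). Myl9, the regulatory light chain of smooth muscle and platelets, had no read in GM-CSF libraries and 8 in control libraries. The regulatory light chains of non-muscle cells come from the related list and are named after their values were seen. Myl12b stood at 558 ± 22.3 CPM in GM-CSF libraries and 796 ± 14.5 CPM in control libraries and fell (-0.51 ± 0.07, edgeR adjusted p = 6.17e-05). Myl12a stood at 453 ± 24.4 CPM in GM-CSF libraries and 346 ± 11.4 CPM in control libraries and rose (0.40 ± 0.07, edgeR adjusted p = 7.19e-04). They are close paralogs, so the split of reads between them is uncertain.

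Class I myosins showed the widest spread, and all 7 tested members changed, 3 higher and 4 lower. Myo1e, a long-tailed member with an SH3 domain that acts in endocytosis, had 13.0, 11.8 and 14.5 CPM in GM-CSF libraries, against 1.79, 1.15 and 0.962 CPM in control libraries. It rose by 3.32 ± 0.24 on the log2 scale (edgeR adjusted p = 4.89e-07), the largest change of any member. Its long-tailed relative Myo1f, which is enriched in leukocytes, had 434, 485 and 515 CPM in GM-CSF libraries, against 1405, 1464 and 1392 CPM in control libraries, and fell by 1.56 ± 0.08 (edgeR adjusted p = 4.20e-08). Their log2 ratio was higher by 4.95 ± 0.28 (SE) in GM-CSF libraries, and Myo1e still made up only 2.34% ± 0.240 of the pair per length there, against 0.0799% ± 0.0273 in control libraries. The Myo1e start region with its CArG box is printed above.

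The short-tailed class I myosins parted too. Myo1c, which links membranes to actin and is known from vesicle transport in fat cells, had 386, 398 and 349 CPM in GM-CSF libraries, against 103, 121 and 104 CPM in control libraries. The groups were far apart, and Myo1c rose by 1.79 ± 0.09 on the log2 scale (edgeR adjusted p = 2.65e-08). Myo1g, a blood cell myosin of the plasma membrane, stood at 485 ± 36.3 CPM in GM-CSF libraries and 753 ± 52.9 CPM in control libraries and fell (-0.63 ± 0.08, edgeR adjusted p = 4.97e-05). With Myo1f falling further, Myo1g made up 42.0% ± 0.962 of the Myo1g and Myo1f pair per length in GM-CSF libraries and 27.5% ± 0.930 in control libraries.

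The other class I members were scarce. Myo1h had 0.417, 0.721 and 3.26 CPM in GM-CSF libraries, against 7.25, 9.0 and 5.24 CPM in control libraries. GM-CSF replicate 3 lay apart from its group but below the controls, and the fall of 2.21 ± 0.52 on the log2 scale (edgeR adjusted p = 0.00333) was 3.63 without it. Kctd10, on the opposite strand, overlaps 25.8% of the exon bases of Myo1h, stood at 96.9 CPM in GM-CSF libraries and 118 CPM in control libraries, and fell by 0.27. No source used here gives the strand setting, so reads of such a pair cannot be told apart. Myo1d rose (0.98 ± 0.34, edgeR adjusted p = 0.0259) at 2.27 CPM in GM-CSF libraries and 1.16 CPM in control libraries, a call that ended without GM-CSF replicates 1 (0.96) or 2 (0.97) or control replicate 1 (0.71).

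**Figure D4:**
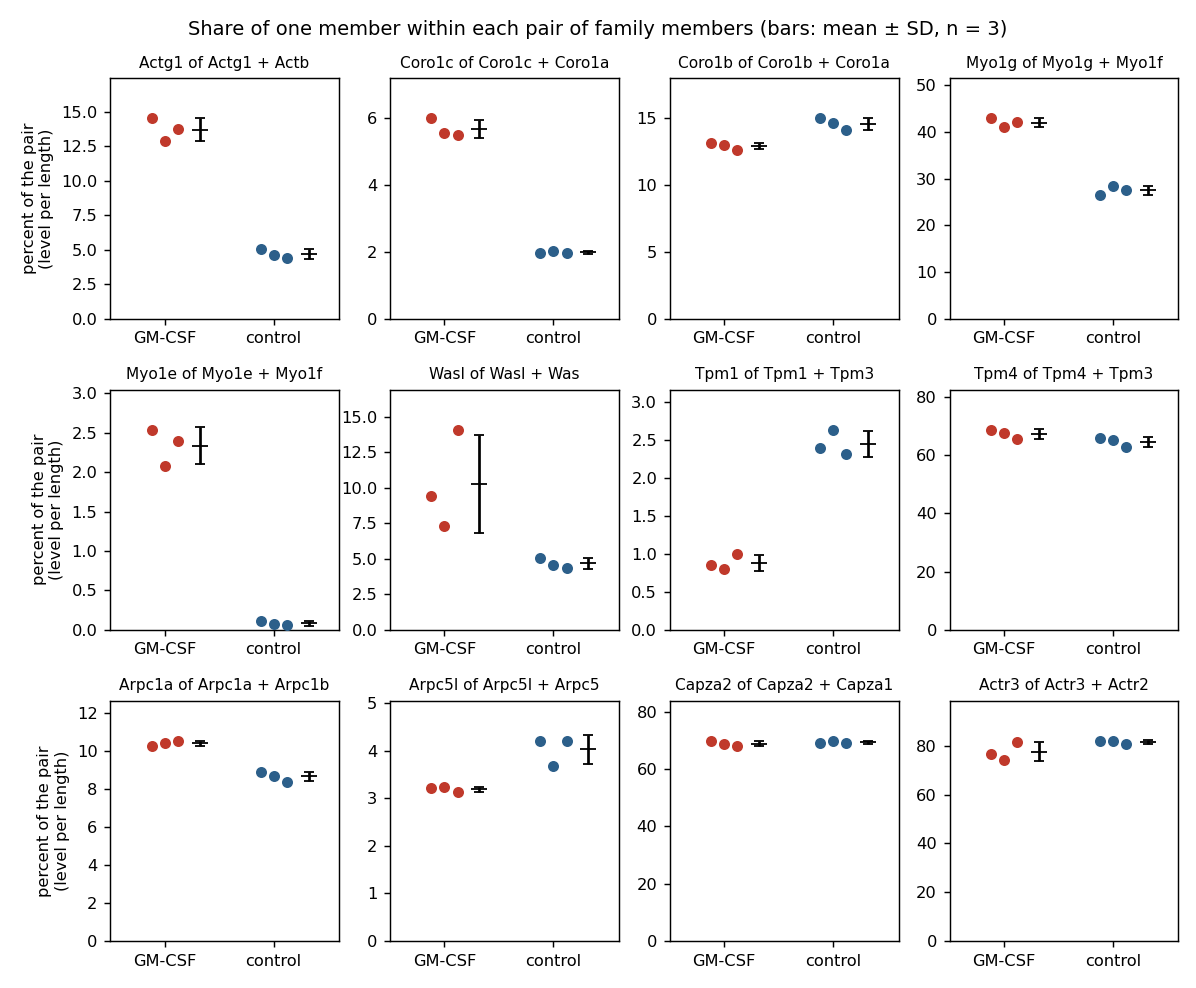
Share of the first-named gene within 12 pairs of family members in each library (percent of the pair's summed level per length, axes from 0, bars are mean and SD), GM-CSF left of control. Actg1, Coro1c, Myo1g, Myo1e, Wasl and Arpc1a take larger shares in every GM-CSF library. Tpm1, Coro1b and Arpc5l take smaller ones, and Capza2, Tpm4 and Actr3 overlap between the groups.

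Across the 17 pairs of family members compared, the log2 ratio within a library did not overlap between groups in 11. The first-named gene had gained in 8 of these. No share over other gene pairs was computed to set beside this count. For single genes, CPM ranges did not overlap in 69.5% of all genes tested, so separation was common. The largest differences in log2 ratio, after Myo1e against Myo1f, were 2.67 ± 0.41 for Pfn2 against Pfn1, 1.69 ± 0.08 for Actg1 against Actb, 1.58 ± 0.04 for Coro1c against Coro1a and -1.49 ± 0.11 for Tpm1 against Tpm3 (SE, n = 3 each). Each of the 11 reached p = 0.1 in an exact two-sided permutation test, the smallest that 3 against 3 libraries allow, and 0.155 after Benjamini-Hochberg adjustment over the 17 pairs. No pair could therefore pass the threshold. Some pairs share a gene and are not independent.

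Related regulators, listed by function and not by change, also went both ways. The table held 121 such genes, of which 101 were tested, and 35 rose and 37 fell (71.3% changed, beside 64.0% of all genes). Of 13 WAVE complex genes and WASP partners, 6 rose and 4 fell. Abi1, with the most reads of the Abi genes, did not pass the test (0.12 ± 0.07, edgeR adjusted p = 0.165). It stood at 170 CPM in GM-CSF libraries and 157 CPM in control libraries. The other Abi genes parted. Abi2 stood at 23.2 ± 2.14 CPM in GM-CSF libraries and 6.33 ± 1.10 CPM in control libraries (1.88 ± 0.15). Abi3 stood at 20.9 ± 1.24 CPM in GM-CSF libraries and 67.5 ± 11.3 CPM in control libraries (-1.68 ± 0.13). Of 12 formins and Ena/VASP proteins, which build unbranched filaments, 5 rose and 4 fell. Evl (-1.21 ± 0.13) and Fhod1 (-1.08 ± 0.21) fell the most. Enah rose the most (3.59 ± 0.40), at 2.46 CPM in GM-CSF libraries and 0.198 CPM in control libraries. Among genes with more reads, Diaph1 (0.88 ± 0.10) and Vasp (0.62 ± 0.11) rose.

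Cofilin regulators changed in both directions. Of 8 kinases and phosphatases that raise or lower cofilin's activity, 5 fell (62.5%, beside 31.2% of all genes tested) and 2 rose. Tesk2, a cofilin kinase, stood at 13.2 ± 2.21 CPM in GM-CSF libraries and 77.8 ± 7.21 CPM in control libraries (-2.56 ± 0.12). Its paralog Tesk1 rose (1.15 ± 0.31), though its CPM ranges overlapped. The slingshot phosphatase genes Ssh2 (-1.21 ± 0.09) and Ssh3 (-2.0 ± 0.59) fell. Ssh3 was scarce, with 1.43, 2.40 and 0.0932 CPM in GM-CSF libraries, against 4.58, 6.38 and 4.19 CPM in control libraries. DESeq2 (-1.96) or leaving out control replicate 2 (-1.79) ended the Ssh3 call, and its value was -1.39 without GM-CSF replicate 3, -2.80 without GM-CSF replicate 2 and -2.90 with limma-voom. Of 3 tested Arp2/3 branch regulators, the debranching factor gene Gmfg fell (-0.53 ± 0.08), as did Hcls1 (-0.35), and Gmfb rose (0.37 ± 0.07). The Hcls1 call ended without control replicate 1 (-0.34), 2 (-0.37) or 3 (-0.36), and without GM-CSF replicate 3, its lowest library, Hcls1 was at -0.19. Of 12 severing, capping and monomer-binding genes, 7 fell and 4 rose. The severing protein gene Gsn stood at 193 ± 10.3 CPM in GM-CSF libraries and 393 ± 17.5 CPM in control libraries (-1.02 ± 0.07), and Svil, encoding supervillin, fell by 0.95 ± 0.10.

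Bundling and membrane-linking genes numbered 19 tested, of which 7 rose and 6 fell. Synpo, encoding the actin-associated synaptopodin, had no control read, so the rise was at least 787-fold, counted against 3 reads over the control libraries together, the most a total of 0 leaves possible. Iqgap2, a scaffold for Rac1 and Cdc42, fell by 1.62 ± 0.11. Chosen after their values were seen, Ezr, which links actin to the membrane, rose by 1.44 ± 0.09 and Cnn2, a calponin, fell by 1.45 ± 0.09. Of 16 tested genes for myosin II regulation and other myosins, 4 rose and 3 fell, Rock2, a kinase that activates myosin II (0.86 ± 0.12), and Myo18a (-0.92 ± 0.09) by the most. Srf itself stood at 59.3 ± 9.49 CPM in GM-CSF libraries and 42.2 ± 1.84 CPM in control libraries (0.50 ± 0.11, edgeR adjusted p = 0.00251). Of the coactivators through which SRF responds to actin monomers, Mkl1 stood at 39.7 ± 8.25 CPM in GM-CSF libraries and 116 ± 1.49 CPM in control libraries (-1.54 ± 0.13, edgeR adjusted p = 1.57e-06), and Mkl2 rose by 0.48 ± 0.18 (edgeR adjusted p = 0.0347). The Mkl2 call ended with upper quartile scaling (0.37), DESeq2 (0.48), and without GM-CSF replicate 2 (0.52) or 3 (0.39) or control replicate 1 (0.41) or 3 (0.45).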

How the data were processed

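The analysis started from the read counts per gene symbol that the authors deposited for 6 libraries of sorted monocytes, 3 with GM-CSF and 3 controls, whose columns carry the sample titles. Per the submitters' processing notes, Trim Galore 0.4.4, HTSeq 0.6.1p1, STAR 2.5.2a, edgeR and mm10 were used, with no roles stated; no source used here gives the annotation or strand setting. Lines without a gene name did not enter: reads with no feature (7.82% to 9.72% of all counted), ambiguous ones (1.44% to 1.53%) and those placed at several positions (18.0% to 19.6%). Near-identical copies can therefore lose reads. Such a copy, at least 150 bases at 97% identity or more in a transcript of another gene (blastn 2.17.0, GENCODE M21), exists for 7 members, whose levels are uncertain: Actg1, Actr3, Arpc1b, Capza1, Cfl1, Myl6 and Tpm3.

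The test was the edgeR 4.0.16 quasi-likelihood F test (R 4.3.3) with TMM normalization, after filterByExpr (minimum count 10, minimum total 15), with group as its sole term. Adjustment followed Benjamini and Hochberg across the 11731 genes tested, at a threshold of 0.05. Each fold change is GM-CSF over control, and its SE is the size of the log2 change over the root of F. Exon bases for TPM came from GENCODE M21 on GRCm38. TPM served to compare genes inside a library. The summed TPM of the members is also given for both groups, as a description only, since its total shifts with transcript length. Scripts were tested on simulated data. Some genes that enter the counts are not reported here by name.

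Values per library were given to members past 2-fold at a mean log2 CPM of 1 or more and to 10 core genes, plus, on the same scale, the 2 largest called changes in every related list. The members and lists were chosen with earlier results of these data known. Diaph1, Diaph2 and Diaph3 were matched through their older symbols. The alternatives were other scalings and filters, a robust prior, a replicate block, DESeq2 1.42.0, limma-voom (limma 3.58.1) and leaving out each library. Deviations of same-numbered libraries from their group means correlated at 0.00380 to 0.0727, so the numbers were not taken as pairs.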

Additional observations from a re-analysis of the deposited data

How the results depend on the processing

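The count of changed members was 9 to 12 higher and 14 to 18 lower when single libraries were left out, beside 12 and 20 with all 6, and 10 and 23 with upper quartile scaling, which lowered the median of all genes by 0.12 log2 units. Of the 32 changed members, 22 kept their call in all 16 alternatives, 10 lost it in at least 1 and none changed sign. The 10 included Actb, Actn1, Actn4, Arpc1b, Arpc3, Arpc4, Arpc5l, Capza1 and Myo1d, each under 1 log2 unit. Of the 12 tested members that were not called, 4 were called in at least 1 alternative. Signs turned for uncalled members: Actr2 without GM-CSF replicate 3 (0.144; -0.193 to 0.144 with single libraries left out), Arpc1a with upper quartile scaling (-0.0216), and Pfn1 with upper quartile scaling (-0.0274) and without GM-CSF replicate 3 (-0.0164; -0.0164 to 0.164 with single libraries left out). The summed platelet markers, lower in GM-CSF libraries with all 6, were higher there (log2 ratio 0.562) without control replicate 3, within a range of -2.32 to 0.562. The cause of these shifts was not tested. With the replicate number as a block, 13 members were higher and 19 lower; same-numbered libraries share only a number. Genes below the filter could not be tested, and all 7 calls under 0.25 log2 units ended in at least 1 alternative.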
